A study of Mus musculus with 6 samples.

Results

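Axon guidance receptors, cell adhesion molecules and proteins of the extracellular matrix were examined in the striatum of mice without HuD. The genes were taken from the transcripts that the study listed as higher or lower in HuD-KO than in WT striatum, by symbol families: semaphorins, plexins, neuropilins, Eph receptors, ephrins, Slit, Robo and netrin genes, contactins, neurexins, neuroligins, cadherins, protocadherins, integrins, collagens, laminins, metalloproteases and their inhibitors, fibulins, testicans, claudins and related adhesion molecules. Of 1088 listed transcripts of 1031 symbols, 22 matched these families. The 2 transcripts of Cntn4 were left out because the symbol was listed more than once, which left 20 genes, 11 listed as lower and 9 listed as higher. Over all listed transcripts 790 were lower and 298 higher. Since the genes were chosen by the difference between HuD-KO and WT, that difference is described for each gene without a test, and values over all tested probes are given as background only.

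RNA had been measured on 1-colour arrays of long non-coding and messenger RNAs, with 1 array per mouse, in the striatum of 3 adult HuD-KO mice and 3 adult WT littermates. HuD-KO mice (labelled Elalvl4-/-, for the gene Elavl4) carry the disruption on both chromosomes in all cells, not in neurons alone, and the labels give no further treatment for either group. The age in months and the sex of the mice are not given in the sources used here, and the knockout line came from another laboratory. HuD is an RNA-binding protein of neurons that attaches to AU-rich stretches of its target RNAs.

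Axons find their targets through guidance receptors such as the Eph family, which bind membrane-bound ephrins on neighbouring cells and signal in both directions. Cadherins, protocadherins and contactins hold neurons and glia to each other, and the clustered protocadherins give single neurons different surface identities. Integrins tie cells to the matrix of collagens, laminins and smaller glycoproteins, which in the brain lies mostly in the basement membranes of vessels, choroid plexus and meninges. Claudins seal the tight junctions of epithelia and endothelium, the choroid plexus among them.

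The 75th percentile of the signal lay between 534.6 and 615.5 on the HuD-KO arrays and between 446.2 and 496.2 on the WT arrays, and 77.8% to 82.0% of spots were well above background. A gene is called detected on an array where the scanner software marked its spot as well above background. Elavl4, the disrupted gene, was detected in 3 of 3 WT and 0 of 3 HuD-KO mice, a level in the knockout lower by at least 15.5-fold. All 4 Y-linked genes with a listed probe were higher in HuD-KO, with a summed level of 7.28 to 7.87 times the 75th percentile on HuD-KO arrays and 0.226 to 0.258 on WT arrays, so sex and genotype cannot be told apart in any comparison given here. The scanner output gives a place for each array, read here as slide row and column. HuD-KO replicates 1 to 3 and WT replicate 1 were in slide row 1, and WT replicates 2 and 3 in slide row 2. No place was given more than once, but no slide number was read, so a shared slide is not established. On HuD-KO replicate 2 a corner of the array was dim, and the probes of Col6a4, Itgb1 and Pcdh15 lie in it. Both probes of the left-out Cntn4 lie in it too. None of the 16 markers of striatal projection neurons had a listed probe, and since other probes carry no gene name here, the tissue label was not checked against them. In bulk tissue, fewer cells of a type and less RNA per cell cannot be told apart.

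Each gene was read by a single 60-base probe, and 10 probes are printed because what follows turns on what they bind. In all of them capitals mark a run of at least 5 T or the polyadenylation signal AATAAA, both searched in the strand printed, and the core of AU-rich elements, ATTTA, was searched too and was in none of them. The intervals are those that the authors' tables give for the probes. The tables name no genome build, and the interval can run past the probe to the end of its exon. The pair of Eph receptors, with opposite directions, is shown first.
Epha4: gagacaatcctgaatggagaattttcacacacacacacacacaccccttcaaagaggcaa
Ephb6: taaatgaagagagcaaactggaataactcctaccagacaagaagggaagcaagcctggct
The Epha4 probe was placed at chr1:77372940-77373847 on the minus strand and the Ephb6 probe at chr6:41612686-41613214 on the plus strand. The only lower cadherin and the only contactin follow, as adhesion molecules of neurons, at chr15:18820595-18820700 (plus) and chr1:132528659-132528909 (minus).
Cdh10: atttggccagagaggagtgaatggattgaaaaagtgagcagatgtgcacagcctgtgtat
Cntn2: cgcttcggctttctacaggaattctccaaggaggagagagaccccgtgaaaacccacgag
The integrin subunits also had opposite directions, and their probes lie at chr7:127317345-127321894 (plus) and chr8:128710481-128713207 (plus).
Itgal: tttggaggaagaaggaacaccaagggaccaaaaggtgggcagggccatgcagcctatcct
Itgb1: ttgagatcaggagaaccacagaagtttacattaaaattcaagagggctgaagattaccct
A claudin and a collagen that are markers of choroid plexus are shown for the comparison with that tissue, at chr16:26356668-26359200 (minus) and chr16:57624325-57628817 (minus).
Cldn1: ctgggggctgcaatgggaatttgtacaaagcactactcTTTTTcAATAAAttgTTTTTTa
Col8a1: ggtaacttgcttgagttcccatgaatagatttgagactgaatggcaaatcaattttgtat
The collagens with higher levels are shown because their probes sit at the very end of the transcript, at chr1:24257817-24261889 (minus) and chr15:71798490-71799520 (minus).
Col19a1: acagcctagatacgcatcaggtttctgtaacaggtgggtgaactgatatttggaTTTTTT
Col22a1: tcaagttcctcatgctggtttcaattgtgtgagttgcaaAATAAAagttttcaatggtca

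Levels are given as log2 of the processed signal relative to the 75th percentile of the same array, so that 0 is the 75th percentile and 1 unit is a 2-fold step, and differences are HuD-KO minus WT. Of the 20 genes, 19 were detected in all 3 mice of one genotype or of both, which was the condition for entering the fit, and 17 on all 6 arrays. Among tested genes listed as lower, 10 of 10 were lower by over 2-fold at an unadjusted p under 0.05 (limma), as were 4.33% of all 47857 tested probes. Among those listed as higher, 9 of 9 were higher by the same limits, as were 1.6% of all tested probes. Both counts follow from the way the genes were chosen, and nothing is read from them. The median difference was -1.29 for the tested lower genes and -1.47 for all tested transcripts listed as lower, and 1.25 for the higher genes and 1.18 for all listed as higher. Over all tested probes it was 0.04. The smallest difference belonged to Itgb1, at 1.03, just inside the 2-fold limit, followed by Pcdhga12 at 1.08 and Lamb2 at -1.09. Probes just outside the limit are not on the study's lists and carry no name, except that the left-out Cntn4 probe that was above background on all 6 arrays differed by 1.01.

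**Figure D1:**
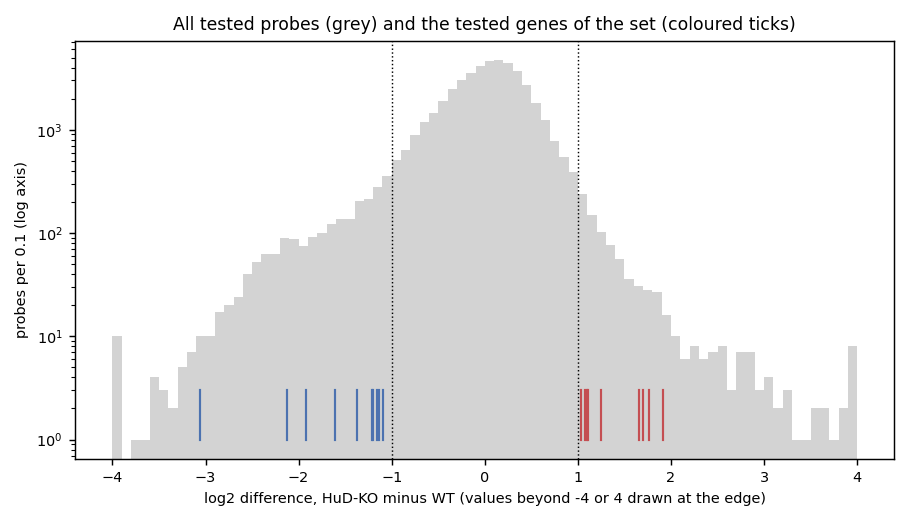
Histogram of the log2 difference, HuD-KO minus WT, over all 47857 tested probes, with the number of probes per 0.1 on a log axis. Ticks mark the 10 lower (blue) and 9 higher (red) tested genes, and dotted lines the 2-fold limit. By the way they were chosen the genes lie outside the dotted lines, from -3.06 (Itgal) to 1.91 (Cldn23), and probes with larger differences exist on both sides.

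Groups did not overlap for any of the 20 genes, which the choice by fold and by the p-value of the study largely fixes, so nothing is read from it. Over all tested probes, every HuD-KO array lay below every WT array for 22.5% and above every WT array for 27.3%. Among the 17 genes detected on all 6 arrays, the gap between the nearest arrays of the groups ranged from 0.41 for Col8a1 to 1.54 for Col6a4.

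**Figure D2:**
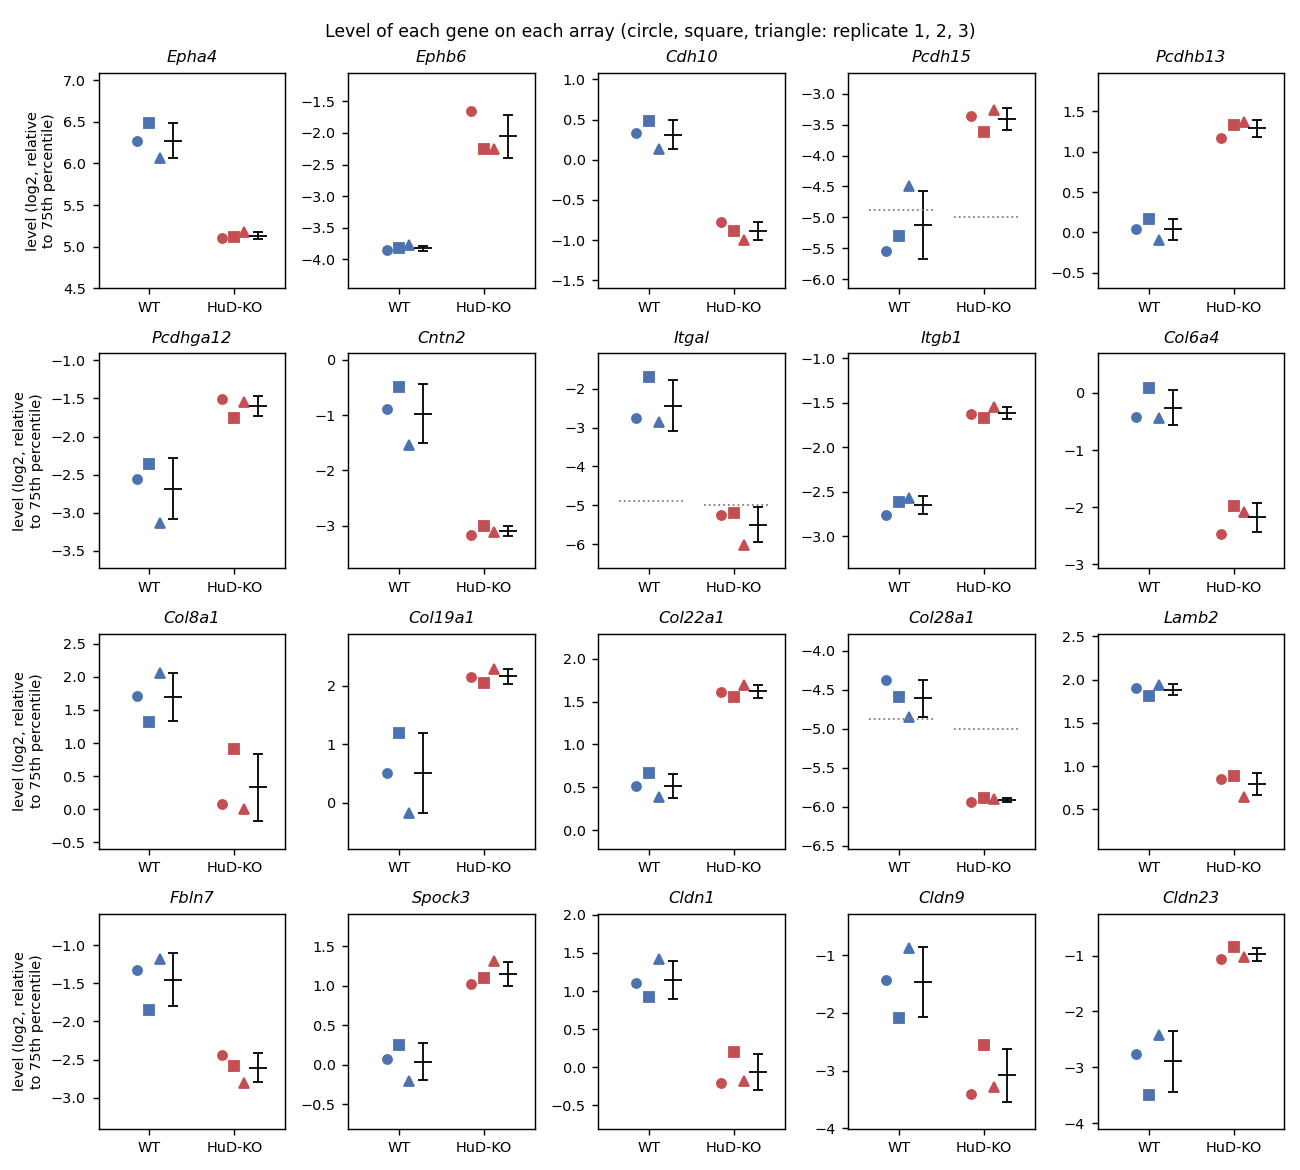
Level of each of the 20 genes on each array (log2 relative to the 75th percentile), WT in blue and HuD-KO in red, with a different vertical scale per panel. Black bars are the group mean and SD (n = 3), and dotted lines, where within the panel, the lowest signal well above background, averaged over the group's arrays. No panel has overlapping groups, and the dotted line lies above all HuD-KO arrays of Itgal and Col28a1 and above 2 WT arrays of Pcdh15.

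The guidance receptors were 2 Eph receptors with opposite directions. Epha4 is a receptor tyrosine kinase for ephrins of both classes that repels growing axons. It was transcribed from chr1:77367185-77515088 (NM_007936). Its level was 5.10, 5.12 and 5.18 in the 3 HuD-KO mice and 6.27, 6.48 and 6.06 in the 3 WT mice. The difference was -1.14, a 2.20-fold lower level, with SDs of 0.041 and 0.21 (n = 3 each), so HuD-KO mice lay close together and WT mice spread over 0.42. Ephb6, an Eph receptor without kinase activity (NM_001146351, chr6:41605482-41620507), had levels of -1.66, -2.25 and -2.26 in HuD-KO and -3.86, -3.83 and -3.78 in WT. It was 3.40-fold higher in HuD-KO (1.77). Here the WT mice lay within 0.079 of each other and HuD-KO replicate 1 stood above the other HuD-KO mice. With normexp background correction, which adds an offset of 50 to every signal, the Ephb6 difference was 0.82. No ephrin, semaphorin, plexin, netrin, Slit or Robo gene was among the 20.

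One classical cadherin was lower and 3 protocadherins were higher. Cdh10, a classical cadherin of neurons (NM_009865, chr15:18820329-19014234), was at -0.77, -0.89 and -1.0 in HuD-KO and 0.34, 0.48 and 0.13 in WT, a 2.30-fold lower level. Pcdhb13, of the clustered beta protocadherins, was at 1.17, 1.33 and 1.37 in HuD-KO and 0.05, 0.17 and -0.09 in WT, 2.38-fold higher. The arrays of each group lay within 0.26 of one another, and the gap between the groups was 1.01. Pcdhga12, of the gamma cluster, was at -1.51, -1.76 and -1.55 in HuD-KO and -2.56, -2.36 and -3.13 in WT, 2.11-fold higher. Its difference was 1.08, and it was 0.63 with normexp and 0.95 within slide row 1. The listed transcripts of Pcdhb13 and Pcdhga12 lie 319.4 kb apart on the same chromosome, so they are not taken as independent loci. Members of protocadherin clusters are similar in sequence, and whether the probes also bind RNA of relatives was not tested. Pcdh15, a long cadherin of the tip links of hair cells (NM_001142735, chr10:73821867-74634765), was detected in 3 of 3 HuD-KO and 1 of 3 WT mice. It was at -3.36, -3.61 and -3.27 in HuD-KO and -5.55, -5.31 and -4.50 in WT. Its level was at least 2.55-fold higher in HuD-KO, a bound that sets each WT array to the higher of its own signal and the lowest signal well above background on that array. The difference was 0.35 with normexp. The tables name 7 other transcripts for the Pcdh15 probe.

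The single contactin was lower. Cntn2, the axonal glycoprotein TAG-1 that organizes the region beside the nodes of myelinated axons (NM_177129, chr1:132509425-132542940), was at -3.17, -3.0 and -3.12 in HuD-KO and -0.89, -0.48 and -1.55 in WT. It was 4.36-fold lower (-2.12), the largest difference among the genes above background on all 6 arrays. The HuD-KO arrays lay within 0.17 and the WT arrays spread over 1.06. Cntn4, the contactin left out for its 2 listed probes, went the other way, with a difference of 1.01 at the probe detected on all 6 arrays. Both Cntn4 probes lie in the corner that was dim on HuD-KO replicate 2.

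The integrin subunits went in opposite directions. Itgal, the alpha chain of LFA-1 on leukocytes (NM_001253872, chr7:127296260-127335137), was detected in 3 of 3 WT and 0 of 3 HuD-KO mice. It was at -5.26, -5.21 and -6.02 in HuD-KO and -2.75, -1.69 and -2.86 in WT. The authors name 1 other transcript for the Itgal probe. The level of Itgal in HuD-KO was lower by at least 5.93-fold. Its measured means differed by -3.06, and by -1.19 with normexp. None of the 12 microglia and immune cell markers had a listed probe, so no other gene of leukocytes from that list stands beside it. Itgb1, the beta chain shared by most integrins that bind matrix (NM_010578, chr8:128685654-128733579), was at -1.63, -1.67 and -1.55 in HuD-KO and -2.76, -2.61 and -2.57 in WT. It was 2.04-fold higher, with SDs of 0.064 and 0.10 (n = 3 each). The difference was 0.62 with normexp, below the 2-fold limit.

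Collagens and laminins were the most numerous, with 4 lower and 2 higher. Col6a4, a chain related to the collagen VI alpha chains (NM_026763, chr9:105990318-106096691), was at -2.48, -1.98 and -2.09 in HuD-KO and -0.42, 0.09 and -0.44 in WT, a 3.8-fold lower level. Col8a1, a short-chain collagen of endothelial and epithelial basement membranes (NM_007739, chr16:57624256-57754737), was at 0.07, 0.91 and 0.00 in HuD-KO and 1.71, 1.32 and 2.06 in WT, 2.58-fold lower. HuD-KO replicate 2 stood well above the other HuD-KO arrays, and with it the nearest arrays of the groups were closer than for any other of the 20 genes. Col28a1, a minor collagen known from peripheral nerve (NM_001037865, chr6:7997808-8192617), was detected in 2 of 3 WT and 0 of 3 HuD-KO mice and was not tested. It was at -5.94, -5.89 and -5.90 in HuD-KO and -4.38, -4.59 and -4.85 in WT. That gives a level at least 1.31-fold lower, with the undetected WT signal taken as measured. Lamb2, the laminin beta 2 chain of basement membranes and synaptic clefts (NM_008483, chr9:108479862-108490530), was at 0.85, 0.88 and 0.65 in HuD-KO and 1.90, 1.81 and 1.93 in WT. It was 2.13-fold lower, and unlike most of the 20 genes it varied less among WT mice, with an SD of 0.063, than among HuD-KO mice, with an SD of 0.13 (n = 3 each).

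The higher collagens were both long genes. Col19a1, a collagen of the fibril-associated type that neurons also make (NM_007733, chr1:24257683-24587437), was at 2.15, 2.04 and 2.29 in HuD-KO and 0.50, 1.19 and -0.18 in WT, 3.15-fold higher. The WT mice spread over 1.37, the widest range of the 20 genes, and the HuD-KO mice over 0.25. Col22a1, a collagen of tissue junctions (NM_027174, chr15:71798476-72034227), was at 1.62, 1.55 and 1.70 in HuD-KO and 0.51, 0.66 and 0.38 in WT, 2.14-fold higher. The gap between its groups was 0.88, and the ranges within the groups were 0.15 and 0.28.

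The other matrix glycoproteins were Fbln7 and Spock3, 1 in each direction. Fbln7, a fibulin that cells adhere to (NM_024237, chr2:128863932-128897034), was at -2.43, -2.58 and -2.81 in HuD-KO and -1.32, -1.84 and -1.19 in WT, 2.23-fold lower. With normexp the difference moved from -1.16 to -0.86. Spock3, the proteoglycan testican-3 of brain (NM_001252621, chr8:62951232-63357096), was at 1.02, 1.1 and 1.31 in HuD-KO and 0.07, 0.25 and -0.21 in WT, 2.15-fold higher. No metalloprotease, thrombospondin or inhibitor of metalloproteases was among the 20.

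Of the claudins, 2 were lower and 1 was higher. Cldn1, which seals epithelial tight junctions (NM_016674, chr16:26356646-26371839), was at -0.21, 0.20 and -0.18 in HuD-KO and 1.1, 0.92 and 1.42 in WT, 2.31-fold lower. Cldn9 (NM_020293, chr17:23682584-23684026), a claudin known from the inner ear, was at -3.41, -2.56 and -3.28 in HuD-KO and -1.44, -2.08 and -0.88 in WT, 3.06-fold lower. In both, HuD-KO replicate 2 was the highest HuD-KO array and WT replicate 3 the highest WT array, and the nearest arrays lay 0.72 and 0.47 apart. Cldn23, another member of the family (NM_027998, chr8:35824709-35826559), was at -1.07, -0.85 and -1.03 in HuD-KO and -2.76, -3.50 and -2.42 in WT, 3.76-fold higher. With normexp its difference moved from 1.91 to 1.21. It thus had the same array order as Cldn1 and Cldn9 within each group and the opposite direction between groups.

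The spread among mice of a genotype entered the p-value of the study and so the choice of genes, but which mouse was highest or lowest within its genotype did not. Within WT, 5 of the 11 lower genes (Cdh10, Cntn2, Col6a4, Epha4 and Itgal) and 5 of the 9 higher genes (Col19a1, Col22a1, Spock3, Pcdhb13 and Pcdhga12) were highest on replicate 2 and lowest on replicate 3. This order held for 26.4% of all tested probes and for 460 of 1050 tested listed transcripts. Another 5 lower genes (Cldn1, Cldn9, Col8a1, Fbln7 and Lamb2) and Cldn23 had the opposite extremes, highest on replicate 3 and lowest on replicate 2, as did 29.6% of all tested probes and 325 of 1050 tested listed transcripts. WT replicates 2 and 3 had the same slide row.

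Markers of choroid plexus were lower in HuD-KO and had the second order. Of 25 markers 12 had a listed probe, all 12 of them listed as lower, and Cldn1 and Col8a1 are 2 of these. The summed level of the other 10 was 92.0 to 160.7 times the 75th percentile on HuD-KO arrays and 244.4 to 337.5 on WT arrays. Most of each sum was Enpp2 alone, at 6.47 to 7.25 (log2) in HuD-KO and 7.81 to 8.26 in WT. Single markers were lower by 2.25-fold (Sostdc1) to 15.7-fold (F5). Each of the 10 was highest on HuD-KO replicate 2 and on WT replicate 3, and so were 4 of the 11 lower genes (Cldn1, Cldn9, Col8a1 and Lamb2), 1 of the 9 higher genes (Cldn23) and 18.1% of all tested probes. Ependyma markers, 7 of 15 with a listed probe and all lower, had summed levels of 14.1 to 20.7 in HuD-KO and 27.1 to 83.8 in WT, and were highest on the same arrays. Every choroid plexus and ependyma marker with a listed probe was detected on every array. The part of these tissues in the levels of the adhesion genes was not tested. None of the 13 endothelial markers or the 10 markers of pericytes and smooth muscle had a listed probe, and of 17 markers of meninges and perivascular fibroblasts 2 did, Lum, listed as lower, and Crabp2, listed as higher but detected in 1 of 3 HuD-KO and 0 of 3 WT mice, which sets no direction. Of 14 markers of cortical and hippocampal projection neurons 5 had a listed probe, 1 lower and 4 higher, and their summed level was 100.7 to 117.8 in HuD-KO and 92.2 to 97.8 in WT. A listed probe was found for 1 of 10 astrocyte markers and 1 of 12 oligodendrocyte markers, both listed as lower, and for 1 of 10 interneuron markers and 2 of 12 markers of septum, hypothalamus and thalamus, all listed as higher.

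**Figure D3:**
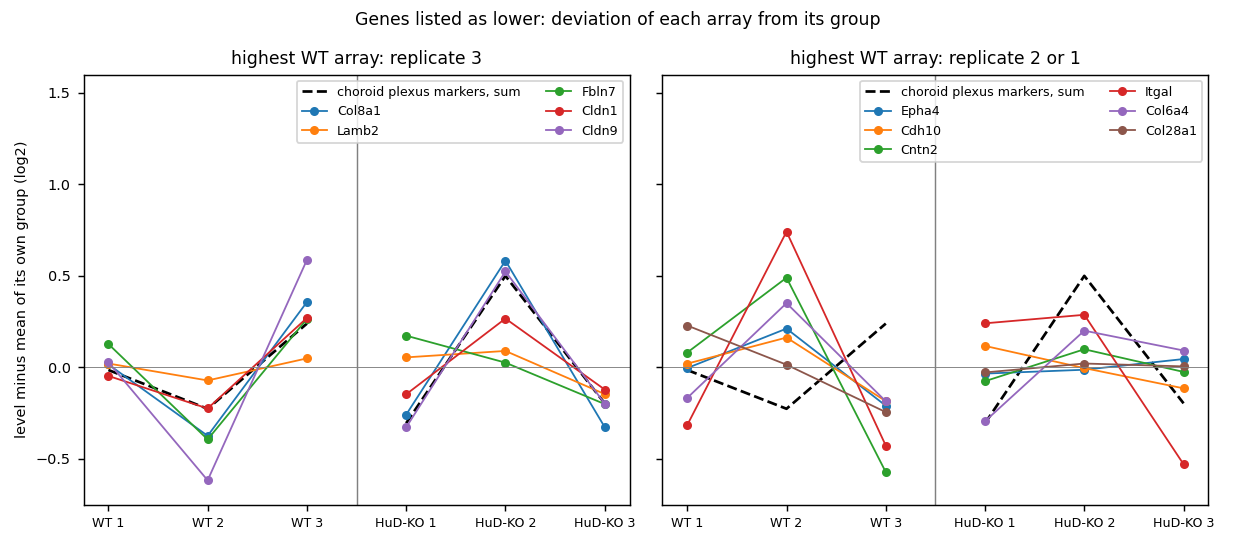
Deviation of each array from the mean of its own group (log2) for the 11 genes listed as lower. The dashed line is the sum of 10 choroid plexus markers, most of it Enpp2. Lines join the arrays of a group to guide the eye and imply no order. On the left the 5 genes that were highest on WT replicate 3, on the right the other 6, of which 5 were highest on WT replicate 2. Cldn1, Cldn9, Col8a1 and Lamb2 peak with the dashed line on WT replicate 3 and HuD-KO replicate 2.

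Spread is given as a description, since it entered the choice. For 17 of the 20 genes the SD was smaller in HuD-KO than in WT, in 9 of the 11 lower and 8 of the 9 higher genes, and the exceptions were Col8a1, Lamb2 and Ephb6. Over all tested probes the SD was smaller in HuD-KO for 60.9%, and over tested listed transcripts for 67.7%.

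Other genes of the same pathways, from lists that cover symbols outside the families above, were looked up among the listed transcripts. Of 26 other guidance receptors and immunoglobulin adhesion molecules only Nptn, the synaptic glycoprotein neuroplastin, was listed, at -2.71, -2.41 and -2.53 in HuD-KO and -0.50, -0.09 and -0.99 in WT. Of 45 genes of intracellular guidance signalling 2 were listed, both lower, Rgs3, a regulator of G-protein signalling (-1.45), and Dpysl3, a protein of the growth cone cytoskeleton that was at least 1.47-fold lower. How many genes of these lists have a probe on the array is unknown, since unlisted probes carry no name, so the counts are not compared between lists.

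Synaptic organizers, proteoglycans and junction plaque genes were looked up in the same way. Of 41 synaptic organizers 3 were listed, Lphn3, an adhesion receptor (also latrophilin-3), lower by -1.98, and C1ql3 and Nptx1, secreted synaptic proteins, higher by 0.99 and 1.1. All 3 proteoglycan genes of 33 with a listed probe were listed as lower. Acan, the aggrecan core protein of perineuronal nets, was at -6.10, -5.30 and -4.31 in HuD-KO and -1.94, -1.85 and -2.69 in WT. It was at least 5.92-fold lower, and Lum differed by -1.29. Gpc6 was detected in 1 of 3 WT and 0 of 3 HuD-KO mice, which sets no direction. Of 51 other matrix glycoproteins and enzymes Postn and P4ha2 were listed, both lower too, Postn by -1.99 and P4ha2, which hydroxylates collagen prolines, by -1.30. Of 30 tight junction and desmosome genes 4 were listed, Dsp (-2.34), Cgnl1 (-1.62) and Ctnnd1 (-1.34) lower and Pkp1 higher. Pkp1, a plakophilin of desmosomes, was at 0.09, 0.06 and -0.01 in HuD-KO and -3.31, -3.91 and -4.07 in WT, a 14.0-fold higher level. These genes too come from the study's lists, and their directions carry no test. Of the listed probes, 32 were annotated with the term cell adhesion, 20 lower and 12 higher, and 13 of the 20 genes were among them.

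**Figure D4:**
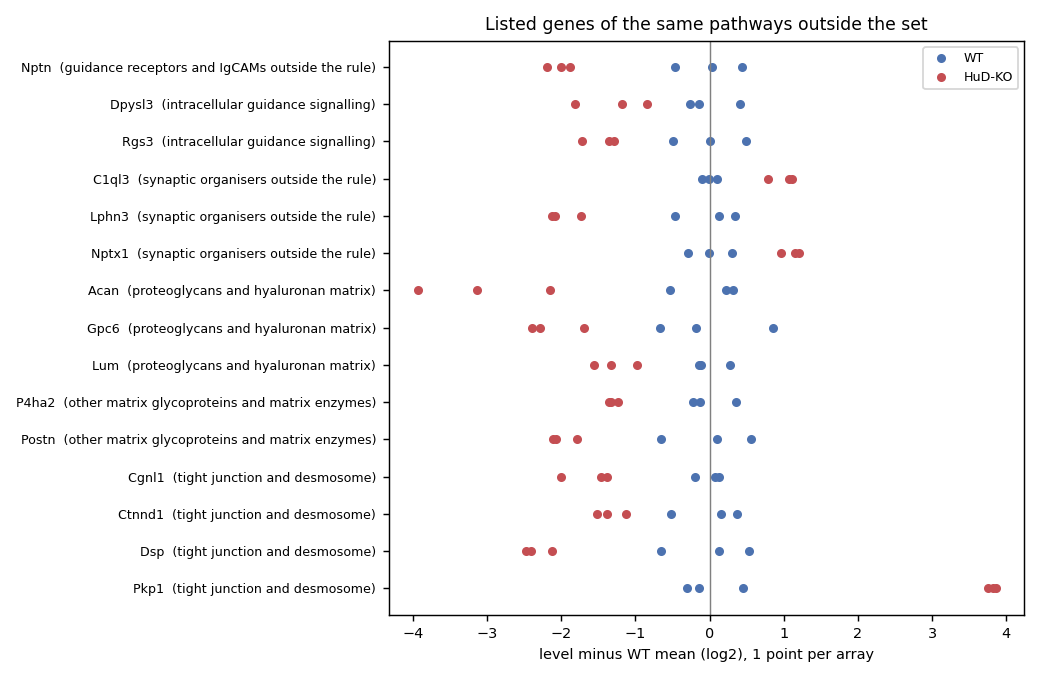
Level of each array minus the WT mean (log2) for 15 listed genes of the pathway lists, with the list in brackets, 3 WT arrays in blue and 3 HuD-KO arrays in red. Of the 15 genes 12 lie to the left, and C1ql3, Nptx1 and Pkp1 to the right. Gpc6 was detected in 1 of 3 WT and 0 of 3 HuD-KO mice, Dpysl3 in 0 of 3 HuD-KO mice and Acan in 1 of 3 HuD-KO mice. All are drawn at their measured signals. Groups are separate in every row, which the choice from the study's lists largely fixes.

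The RNAs of the 20 genes were long. Their annotated length had a median of 4655 bases, with 2444 over all listed transcripts, and the span of the gene a median of 62.1 kb, with 22.1 kb over all listed. Pcdh15 spanned 813 kb and Cldn9 1.44 kb. The lower genes had probes with a median GC content of 51.7% and the higher genes of 38.3%, and all listed probes had a median of 45.0%. Probes of 12 genes lay in the last 10% of the gene, among them Cldn1, Col8a1, Col19a1, Col22a1 and Pcdh15, whose probes lie within the last 1%, while that of Cdh10 lies within the first 1% and that of Spock3 starts there, in an interval that crosses an intron, so that the part of the transcript that was read differs between genes. AATAAA was in the probes of Cldn1 and Col22a1, and in 7.44% of all listed probes, and its reverse complement TTTATT was in 0 of the 20 and in 2.02% of all listed probes. A run of at least 5 T was in the probes of Cldn1, Col19a1 and Pcdhga12, and in 6.62% of all listed probes. ATTTA was in 0 of the 20 probes and in 5.88% of all listed probes, a count over 60 bases that says nothing of the rest of the RNA.

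The background correction moved more values than any other alternative, 10 of the 12 that moved by over 1 SD. With normexp in place of the scanner's own background subtraction, 5 genes were under 2-fold (Ephb6, Fbln7, Itgb1, Pcdh15 and Pcdhga12), and 5 in place of 9 higher genes passed both limits. The authors' own log2 values gave differences within 0.1 of those above for every gene. Without HuD-KO replicate 2, the array with the dim corner, the differences of Col6a4, Itgb1 and Pcdh15 were -2.02, 1.06 and 1.80. Within slide row 1, with WT replicate 1 as the only WT array, all 19 tested genes had the same direction. Groups that do not overlap fix this in advance, so nothing is read from it.

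**Figure D5:**
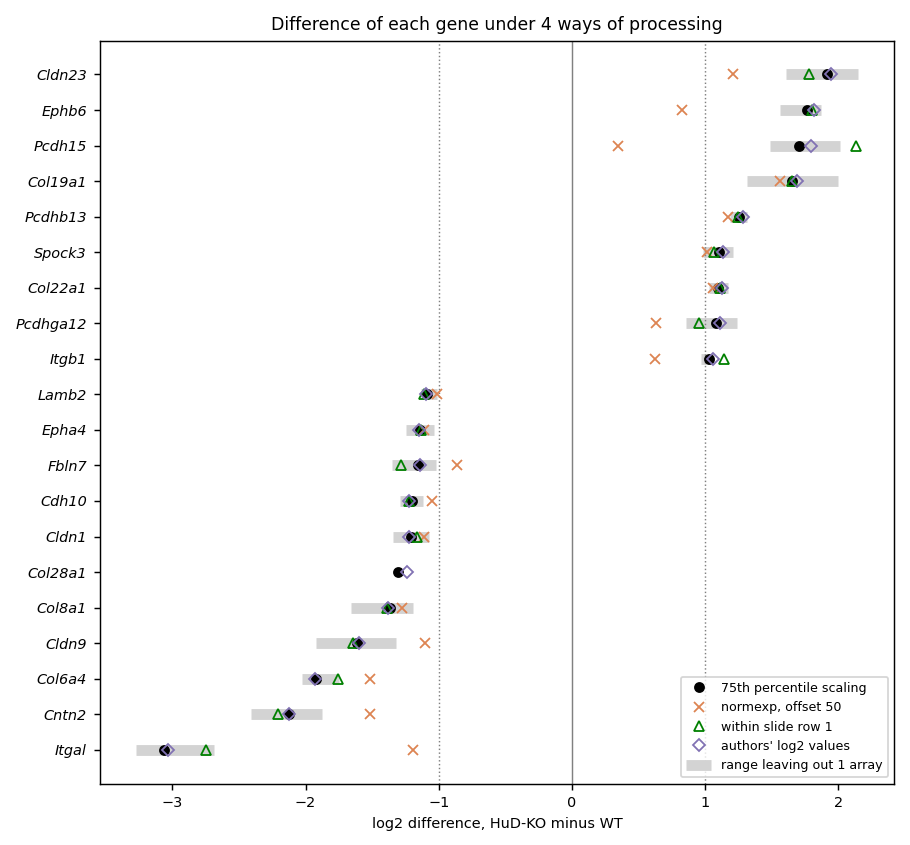
Difference of each gene (log2, HuD-KO minus WT) with scaling to the 75th percentile (filled circle), normexp with an offset of 50 (cross), within slide row 1 (triangle) and from the authors' log2 values (diamond), with the range over leaving out each array in turn in grey. Itgal, Pcdh15 and Col28a1 are drawn at their measured means although 1 group of each was not detected on every array. Crosses lie nearer 0 than circles, most of all for Itgal and Pcdh15, and no symbol crosses 0. For triangles and grey ranges that is fixed by groups that do not overlap.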

How the data were processed

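Striatal RNA of 3 HuD-KO and 3 WT mice was analysed, 1 array each. Per the labels, RNA depleted of ribosomal RNA was amplified from oligo(dT) and random primers and carried Cy3. Intensity per spot comes from the deposited scanner output, with background subtracted by Feature Extraction 11.0.1.1 and no normalization between arrays. The authors' deposited tables of higher and lower transcripts hold intensity columns, equal to the processed signal within 0.1% in 120 of 120 values of the 20 genes, and log2 normalized values, whose method is not stated. Their fold changes and p-values, over 2-fold at p under 0.05 by an unpaired t-test, were not used beyond membership of a list.

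Processed signals were divided by the 75th percentile of the target spots of their array and log2 transformed. Of 60915 probes 65 were dropped for an outlier mark, and 47857 detected on every array of at least 1 group were fitted by lmFit and eBayes (two-sided) of limma 3.58.1 under R 4.3.3. The script was tested on simulated data. Python 3.11.15 with numpy 2.4.6 and pandas 2.3.3 served for tables and plots. Gene names and coordinates are those of the authors' tables, which name no build. All 20 genes were found in RefSeq for GRCm38.p6 by symbol and chromosome, 13 with the same start or end. Precision was limited by 3 arrays per group, and the labels do not say which mice were littermates of which.

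Genes and lists were chosen with earlier results of these data known. Every gene found by symbol was named, with its value on every array. Of the pathway lists, up to 3 genes each were to be named, and the fourth of the junction list was named after its value was seen. An item of these lists is not reported here. Alternatives were the percentile over detected probes, quantile normalization, normexp, other filters, the methods' t-test, the replicate number and the slide row as blocks, leaving out the dim corner or each array, and the authors' log2 values.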

Additional observations from a re-analysis of the deposited data

How the results depend on the processing

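With normexp, run on the median spot signal, 5 higher genes passed both limits in place of 9, and the median difference was -1.11 for lower and 1.01 for higher genes. Leaving out each array in turn gave 10 to 10 lower and 7 to 9 higher genes, with medians from -1.50 (without HuD-KO replicate 2) to -1.18 and from 1.19 to 1.31. Without WT replicate 3, 7 higher genes passed. With the replicate number as a block, 10 lower and 9 higher genes passed. Same-numbered samples did not deviate together (correlations -0.03, -0.06 and -0.13). With 3 mice a group this does not settle whether the numbers pair mice. The replicate block moved the calls over all probes from 2072 to 2050 lower and from 765 to 763 higher. Over all probes normexp left 1058 lower and 323 higher calls. Of 262 values of single genes under the alternatives all 262 kept their direction, which was largely fixed in advance. With groups that do not overlap, leaving out 1 array or keeping slide row 1 cannot turn a direction. The other filters and leaving out the dim corner leave a gene's difference as it was. Of the 262 values 12 moved by over 1 SD, 10 with normexp and 2 with the slide row (Itgb1, 1.14, and Pcdh15, 2.14). Signal near background limits Itgal, Col28a1 and Pcdh15, and 3 mice a group, with sex and genotype inseparable, limit all.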

Other observations

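Some of the 20 genes had listed neighbours that went the same way. Within 1 Mb of Ephb6, 4 other listed genes lay, and all 4 were higher in HuD-KO. They were the trypsin family genes Prss3 (difference 2.28), Prss1 (at least 2.70-fold) and Try5 (at least 1.99-fold), and the calcium channel gene Trpv6 (1.41). The listed transcript of Trpv6 lies beside the end of Ephb6 on the chromosome. Prss3 was at 0.72, 0.44 and 0.59 in HuD-KO and -1.55, -1.75 and -1.78 in WT. Trypsin genes are similar in sequence, and whether their probes share RNA was not tested. Within 1 Mb of Lamb2 4 of 4 listed genes (Fbxw16, Nat6, Ccdc36 and Mst1r) were lower, and within 1 Mb of Itgal 3 of 3 (Setd1a, Mylpf and Zfp771). Of all listed transcripts 72.6% were lower. In 5 cases the only listed neighbour went the other way, Ostn for Cldn1, Mfsd4 for Cntn2, Prss22 for Cldn9, Dlc1 for Cldn23 and Gm4975 for Spock3. The only listed neighbour went the same way for Col8a1 (Tmem30c), Fbln7 (Sirpa) and Epha4 (Pax3), as it did for Pcdhb13 and Pcdhga12, which neighbour each other. The 2 listed neighbours of Col6a4 (Vprbp and Iqcf5) were lower too. The neighbours were looked up after the values were seen, and no test was made.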
